A study of Drosophila melanogaster with 24 samples.

Results

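The vacuolar ATPase subunit genes of the fly were described in sorted brain neurons. The members were all genes with a single symbol in the probe-to-gene table that starts with Vha, which gave 31 genes among the 11982 genes with a single symbol on the array. Of these, 30 were read by 1 probe set and Vha16-1 by 2, so 32 of the 18769 probe sets other than controls belonged to the family. For Vha16-1 the probe set whose 24 values had the higher mean stood for the gene. No comparison entered this choice of probe set, but the family itself was chosen with earlier results of these data known. Vha68-1 and Vha68-2, 2 of the 3 genes of the ATP-splitting subunit A, had no probe set with a single symbol and were not analysed here.

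The study hybridised 24 Affymetrix arrays with amplified RNA from GFP-positive neurons collected by hand from about 50 adult Drosophila melanogaster brains per sample, under 12 h of light and 12 h of darkness. Large PDF neurons (yw background, male and female) were taken at ZT0 and ZT12 with 3 arrays each and at ZT6 and ZT18 with 2 arrays each, where ZT counts hours on the light schedule. Small PDF neurons (yw, male and female) had 2 arrays at ZT0 and 2 at ZT12, and neurons labelled with an ELAV driver (yw, male and female) had 3 and 3. Large PDF neurons of per01 males, which lack a working period clock gene, had 2 and 2, so that sex and genotype cannot be told apart in that group. PDF neurons are clock neurons that release the neuropeptide Pigment-dispersing factor, and the ELAV group stands for brain neurons in general. GFP drivers defined the cells, so a group is whatever cells the driver marked and the sorter took. Replicates were labelled as biological replicates.

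The vacuolar ATPase is a rotary pump that uses ATP to move protons into lysosomes, endosomes, the Golgi and synaptic vesicles. Its cytosolic V1 part (subunits A to H) splits ATP and turns a central stalk, and its membrane part V0 (subunits a, c, c″, d and e) carries the protons through a ring of c subunits held against subunit a. In neurons the proton gradient loads transmitters into synaptic vesicles and acidifies the organelles in which neuropeptides are processed and proteins are degraded. Flies carry several paralogues for many of the subunits, and in flies some of these are known to be expressed mainly in the testis or other single tissues.

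Array quality and sorting bear on everything below. Replicate arrays correlated at 0.936 to 0.979 over all probe sets other than controls. Of 5 PDF neuron markers 4 to 5 reached a log2 value of 5 on every array of PDF neurons and 1 to 3 on the ELAV arrays, whereas all 4 measured general neuron markers did so on every array but 1, a small PDF array with 3. Array medians lay between 3.14 and 3.44 in the yw groups and between 2.57 and 2.60 on the 4 per01 arrays. Array ZT0 replicate 2 of the large PDF neurons carried 5 of 6 haemocyte markers at 5 or more.

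Expression values are log2 GCRMA values, on which 1 unit stands for a 2-fold difference. A value of 5 or more was taken as detected, and genes that reached it on at least 2 arrays were tested. The family split into genes that were detected everywhere and genes that were undetected nearly everywhere. Whether the probe sets of the undetected genes can respond was not tested. Of the 31 genes 15 were at 5 or more on all 24 arrays, with a lowest single value of 8.57, and 12 were under 5 on all arrays, with a highest single value of 3.88. Only 4 genes fell in between. As a result 17 genes passed the filter for testing.

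**Figure D1:**
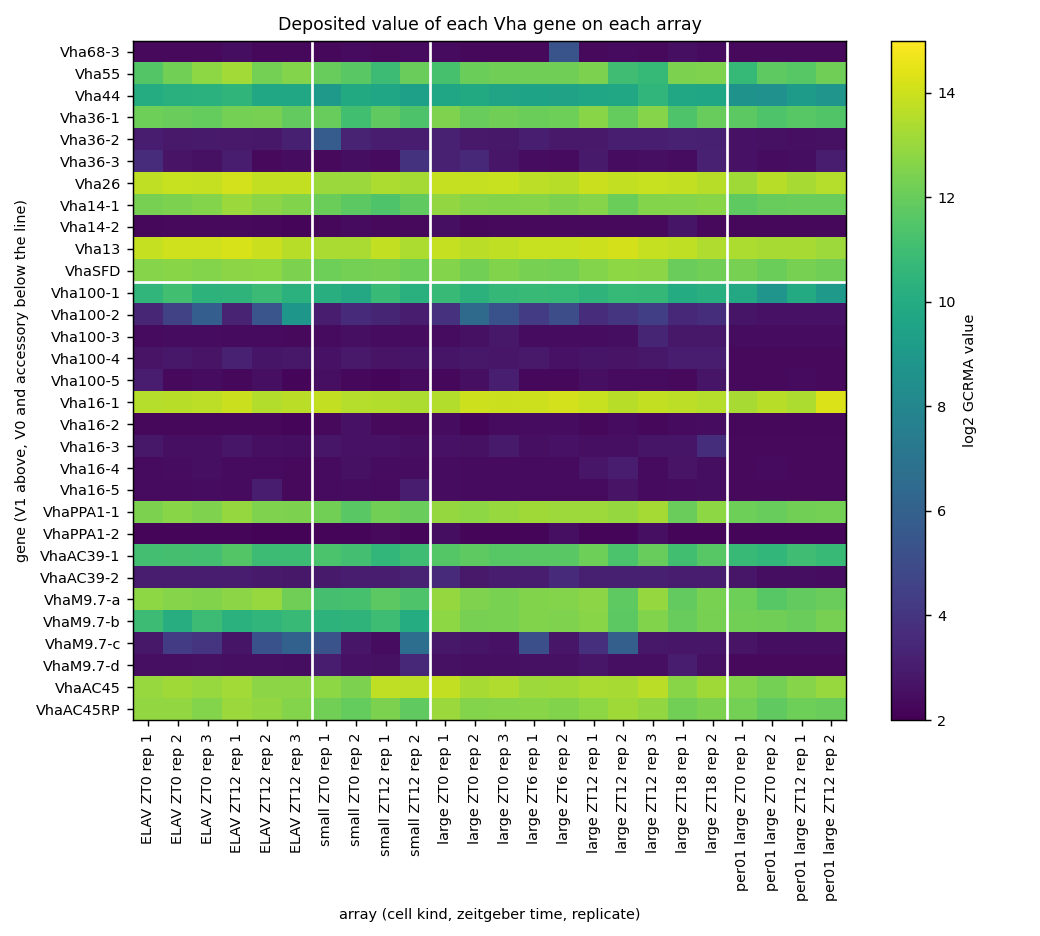
Heat map of the deposited log2 GCRMA value (colour) of each of the 31 Vha genes (rows, V1 above the white horizontal line, V0 and accessory below) on each of the 24 arrays (columns, cell kinds separated by white vertical lines). The 15 genes detected on all arrays form solid bright rows at 8.57 or more, and for most subunits with several genes 1 row is bright while its paralogues stay dark.

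For subunits c, c″, d, D and F, the same member was detected on all arrays of the large and small PDF neurons and the ELAV neurons. For the proton-carrying ring subunit c, Vha16-1 was at 13.30 to 14.30 on all arrays, whereas Vha16-2, Vha16-3, Vha16-4 and Vha16-5 never rose above 3.68. For subunit c″, VhaPPA1-1 ranged from 11.70 to 13.23 and VhaPPA1-2 stayed at or below 2.53. Subunit d, which joins the ring to the stalk, was read by VhaAC39-1 at 10.61 to 12.16, with VhaAC39-2 at 3.62 or less. In the central stalk, the subunit D gene Vha36-1 ranged from 11.04 to 12.71, while Vha36-3 stayed at or below 3.88 and Vha36-2 passed 5 on a single array. The subunit F gene Vha14-1 ranged from 11.43 to 13.02, and Vha14-2 did not exceed 2.73.

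For the large membrane subunit a, Vha100-1, the fly form studied at synapses, was at 8.79 to 11.08 on all arrays. Its paralogues Vha100-3, Vha100-4 and Vha100-5 stayed at or below 3.34, and Vha100-2 passed 5 on 6 of 24 arrays. Subunit e, a small membrane protein, was the exception to the pattern of a single gene, because both VhaM9.7-a (11.15 to 13.01) and VhaM9.7-b (10.07 to 12.78) were detected on every array. VhaM9.7-c reached 5 on 6 arrays and VhaM9.7-d on none, with a highest value of 3.44. The only A subunit gene measured, Vha68-3, passed 5 on 1 array. Levels of different genes come from different probes and are not set against each other here.

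Some of the paralogues lie close together. In the RefSeq annotation of genome Release 6, VhaPPA1-1 and VhaPPA1-2 have 1 gene between them, as do Vha16-2 and Vha16-3, and Vha100-2 and Vha100-4 have none between them. Thus VhaPPA1-2 was under 5 on all 24 arrays within 1 gene of VhaPPA1-1, which was above 11 on all of them.

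Genes of subunits with a single gene were also detected on all arrays. In V1, the ATP-binding subunit B gene Vha55 ranged from 10.71 to 13.18, and the stalk genes Vha26 (subunit E) and Vha13 (subunit G) from 13.02 to 14.11 and from 13.08 to 14.20. The subunit C gene Vha44 and the subunit H gene VhaSFD ranged from 8.57 to 10.56 and from 12.01 to 12.80. The accessory gene VhaAC45 and its relative VhaAC45RP ranged from 12.28 to 13.78 and from 11.81 to 13.13. Hence the tests between cell kinds mostly concern moderate shifts among genes that are detected in every sample.

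Differences between cell kinds were tested on the mean of ZT0 and ZT12 with limma over all 8318 probe sets past the filter, and a gene was called at a Benjamini-Hochberg adjusted p below 0.05. In large PDF neurons against ELAV neurons 3 of 17 genes were called, all higher. Among all probe sets tested 24.4% were called in this comparison, with 11.9% higher and 12.5% lower. The members' share of calls lay below the background in total and for lower calls, and above it for higher calls. With 3 calls, these shares are not read as a result about the members. The median difference was -0.003 over the 17 genes and -0.01 over all probe sets. In small PDF neurons against ELAV neurons 4 of 17 were called, all lower, against 27.6% of all probe sets called, 14% lower and 13.6% higher. In small against large PDF neurons 8 of 17 were called, all lower, against 17.1% called, 7.97% lower and 9.14% higher in the background. Because the same ELAV, large and small arrays enter these 3 comparisons in pairs, their calls are not independent of each other.

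Small PDF neurons thus stood low in much of the family. Of the 15 genes detected on all arrays 14 had a negative difference against ELAV neurons and 14 against large PDF neurons. Both counts use the same small PDF arrays, so the genes are not independent of each other. The share of negative differences among other probe sets was not computed. The median over the 17 genes was -0.52 against ELAV neurons and -0.71 against large PDF neurons, beside medians of 0.02 and 0.03 over all probe sets tested. These 2 groups of small PDF neurons hold 4 arrays in all, and amplified RNA from sorted cells does not tell fewer cells of a type from less RNA per cell. Without 3 arrays picked from earlier results for markers of other cells (large ZT0 replicate 2, large ZT18 replicate 2 and small ZT0 replicate 1) 5 of the 8 genes were called against large PDF neurons, and 1 of the 3 in large PDF neurons against ELAV neurons. Arrays that stayed in carried such markers too. ELAV ZT12 replicate 3 had the haemocyte gene Ppn at 8.09, and small ZT12 replicate 1 the monoamine neuron gene Vmat at 9.698. Small ZT0 replicate 2 had the cholinergic gene ChAT at 7.93. It also had 3 of 5 glial markers at 5 or more, beside 1 on each other small PDF array. Of 5 fat body markers, 0 to 3 were at 5 or more on the ELAV, large PDF and small PDF arrays alike. The part of all these markers in the small PDF values was not tested. Leaving out small ZT0 replicate 2 alone brought the 8 calls to 4, and leaving out ELAV ZT0 replicate 3 brought the 3 calls to 1. With only the large and small PDF arrays in the fit, 3 genes were called between them: VhaM9.7-b, VhaM9.7-a and VhaPPA1-1.

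**Figure D2:**
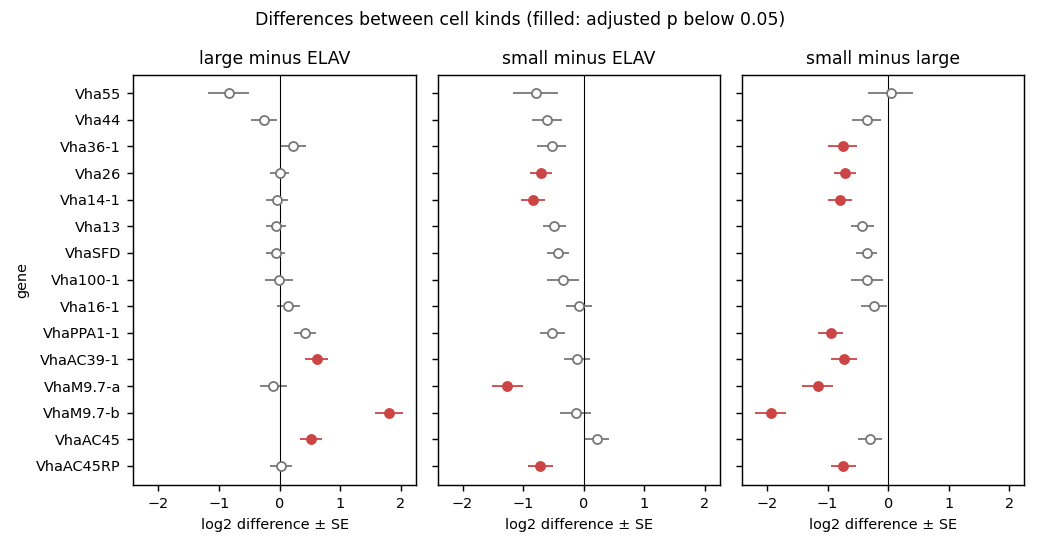
Difference between cell kinds (horizontal axis, log2, mean of ZT0 and ZT12) with its standard error for the 15 Vha genes detected on all arrays, in 3 panels for large minus ELAV, small minus ELAV and small minus large PDF neurons. Filled points have an adjusted p below 0.05, and VhaM9.7-b stands at 1.80 in the first panel and at -1.94 in the last, while the points of the last 2 panels lie mostly left of 0.

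Among the called genes, on the probe sets that stood for them, the subunit e genes carried the largest differences between cell kinds. These 2 paralogues, VhaM9.7-b and VhaM9.7-a, differed between cell kinds in different ways. VhaM9.7-b was at 11.71 to 12.78 on the 10 large PDF arrays, with a median of 12.45. On the 6 ELAV arrays it ranged from 10.09 to 10.93 with a median of 10.70. In small PDF neurons it stood at 10.41 and 10.44 at ZT0 and at 10.95 and 10.07 at ZT12. No large PDF array overlapped with an ELAV or small PDF array. The share of all probe sets without such overlap was not computed, here or for the genes and comparisons below. VhaM9.7-b was 1.80 ± 0.23 (SE) log2 higher in large PDF neurons than in ELAV neurons, or 3.49-fold (12.41 against 10.60, 6 arrays each, adjusted p = 1.59e-05). Small PDF neurons were 1.94 log2 lower than large ones (-1.94 ± 0.26, 3.83-fold, adjusted p = 5.93e-05), while they differed from ELAV neurons by -0.13 ± 0.26 (adjusted p = 0.748). Both calls held under every alternative setting and with any 1 array left out. The per01 arrays, at 12.24, 12.19, 12.04 and 12.33, lay inside the range of the wild-type large PDF arrays.

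VhaM9.7-a was instead lower in small PDF neurons than in both other wild-type kinds. It stood at 11.15 and 11.21 at ZT0 and at 11.73 and 11.44 at ZT12 in small PDF neurons. The ELAV arrays ranged from 12.16 to 13.01 (median 12.69) and the large PDF arrays from 11.76 to 12.96 (median 12.52). No small PDF array reached the lowest ELAV or large PDF array, although the highest of them came within a small margin of the lowest large PDF array, ZT12 replicate 2. The difference was -1.26 ± 0.26 against ELAV neurons (2.40-fold lower, adjusted p = 0.00121) and -1.16 ± 0.26 against large PDF neurons (2.24-fold lower, adjusted p = 0.00435). Large PDF and ELAV neurons differed by -0.10 ± 0.23 (adjusted p = 0.797). Both calls in small PDF neurons held under every alternative and with any 1 array left out.

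**Figure D3:**
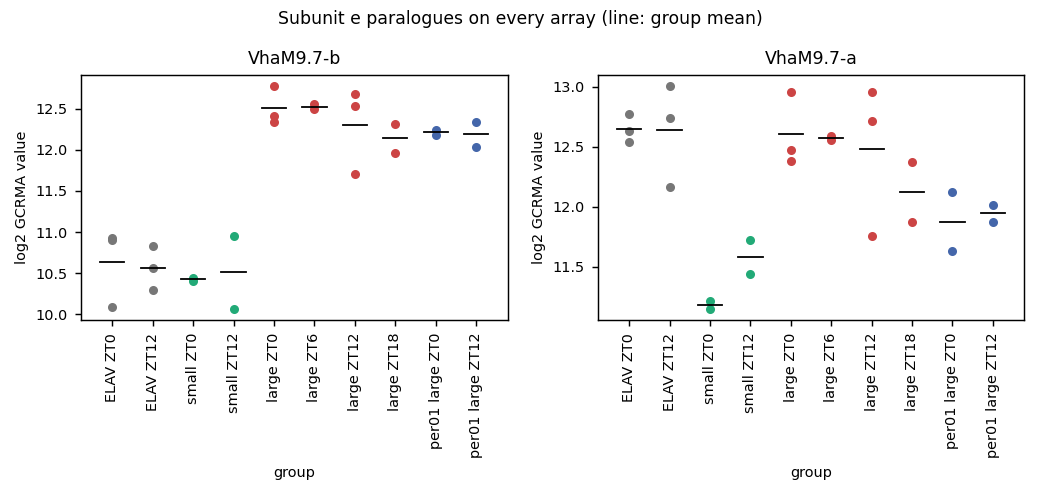
Deposited log2 GCRMA value (vertical axis, not starting at 0 and scaled for each panel) of VhaM9.7-b (left) and VhaM9.7-a (right) on every array by group, with a line at each group mean. All large PDF arrays, per01 included, lie at 11.71 or above for VhaM9.7-b and all others at 10.95 or below, whereas for VhaM9.7-a the 4 small PDF arrays lie between 11.15 and 11.73, below all ELAV and wild-type large PDF arrays.

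Among the other V0 genes, the c″ gene VhaPPA1-1 was lower in small than in large PDF neurons. Its values in small PDF neurons were 12.26 and 11.70 at ZT0 and 12.23 and 12.05 at ZT12. On the large PDF arrays it ranged from 12.05 to 13.23 with a median of 12.98, so the groups overlapped only through large ZT18 replicate 1, which is outside the test of ZT0 and ZT12. The difference was -0.94 ± 0.21 (1.92-fold lower, adjusted p = 0.00413), and this call held in every setting and with any 1 array left out. Against ELAV neurons (12.42 to 12.93) the small PDF neurons differed by -0.52 ± 0.21 (adjusted p = 0.07), and the large ones by 0.42 ± 0.18 (adjusted p = 0.106).

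The subunit d gene VhaAC39-1 was called higher in large PDF neurons than in both other kinds. It ranged from 11.07 to 12.16 (median 11.65) on the large PDF arrays and from 10.89 to 11.52 (median 11.11) on the ELAV arrays, which overlapped. The small PDF arrays gave 11.34, 11.14, 10.62 and 10.95. Large PDF neurons exceeded ELAV neurons by 0.61 ± 0.20 (adjusted p = 0.0291), a call that was lost in 6 of the 24 fits that left out a single array (highest adjusted p 0.0708, for large ZT12 replicate 1), after median centring, with only the large PDF and ELAV arrays fitted, and without the 3 arrays named above. Small PDF neurons stood at -0.73 ± 0.22 against large ones (adjusted p = 0.0288). This call was also lost in 6 of 24 such fits, among them the one without small ZT0 replicate 2. It was lost as well without the 3 arrays and with only the large and small PDF arrays fitted.

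The ring gene Vha16-1 and the subunit a gene Vha100-1 were not called between cell kinds. Vha16-1 differed by 0.15 ± 0.19 between large PDF and ELAV neurons (adjusted p = 0.629) and by -0.23 ± 0.22 between small and large PDF neurons (adjusted p = 0.504). Vha100-1 differed by -0.003 ± 0.23 and by -0.35 ± 0.26 in the same comparisons (adjusted p = 0.994 and 0.392). A second probe set of Vha16-1 gave other values, described with the time points.

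In V1, the stalk genes Vha14-1 and Vha26 were lower in small PDF neurons than in both other kinds. Vha26 ranged from 13.78 to 14.11 on the ELAV arrays and from 13.62 to 13.96 on the large PDF arrays. The 4 small PDF arrays gave 13.02, 13.03, 13.38 and 13.25, all below every ELAV and large PDF array. The difference was -0.70 ± 0.18 against ELAV neurons (1.63-fold lower, adjusted p = 0.00612) and -0.71 ± 0.18 against large PDF neurons (adjusted p = 0.00996). The second call was lost without the 3 arrays named above and with only the large and small PDF arrays fitted.

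Vha14-1 gave 12.10, 11.74, 11.43 and 11.81 in small PDF neurons. The ELAV arrays ranged from 12.35 to 13.02 and the large PDF arrays from 12.09 to 12.89, so that the highest small PDF array, ZT0 replicate 1, lay just above the lowest large PDF array, ZT12 replicate 2. Vha14-1 differed by -0.84 ± 0.20 from ELAV neurons (1.79-fold lower, adjusted p = 0.00371) and by -0.80 ± 0.20 from large PDF neurons (adjusted p = 0.00915). The latter was lost without small ZT0 replicate 2 and with only the large and small PDF arrays fitted.

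Vha36-1, whose protein forms the central stalk with that of Vha14-1, was called lower in small than in large PDF neurons. The small PDF arrays gave 11.99, 11.04, 11.85 and 11.37 and overlapped with the large PDF range of 11.42 to 12.71 and with the ELAV range of 11.89 to 12.33. The difference from large PDF neurons was -0.75 ± 0.24 (adjusted p = 0.0408), and it was lost in 8 of the 24 fits that left out a single array (highest adjusted p 0.219, for small ZT0 replicate 2) and after median centring. With only the large and small PDF arrays fitted, the call was lost as well. Against ELAV neurons the value was -0.53 ± 0.24 (adjusted p = 0.117).

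The remaining V1 genes were not called between cell kinds. Vha55, the subunit B gene, stood at -0.84 ± 0.34 in large PDF neurons against ELAV neurons (adjusted p = 0.0773) and at -0.80 ± 0.37 in small ones (adjusted p = 0.129). Its values spread widely within groups, for example from 10.71 to 12.43 over the 3 large ZT12 arrays. Vha13, Vha44 and VhaSFD differed by -0.26 to -0.06 between large PDF and ELAV neurons and by -0.61 to -0.42 between small PDF and ELAV neurons, with adjusted p from 0.0632 to 0.0893 in the latter.

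Of the accessory genes, VhaAC45, whose protein is bound to V0, was called higher in large PDF than in ELAV neurons by 0.51 ± 0.18 (adjusted p = 0.0446). Its ranges of 12.69 to 13.78 and 12.74 to 13.19 overlapped, and the call was lost in 11 of the 24 fits that left out a single array (highest adjusted p 0.105, for large ZT0 replicate 1) and under 5 other settings, among them both rescalings and the fit without the 3 arrays named above. VhaAC45RP was lower in small PDF neurons, which gave 12.22, 11.92, 12.43 and 11.84 against 12.57 to 13.06 on the ELAV arrays, with no overlap. The difference was -0.72 ± 0.21 against ELAV neurons (adjusted p = 0.0147) and -0.74 ± 0.21 against large PDF neurons (adjusted p = 0.0192). Both calls were lost without small ZT12 replicate 2 (adjusted p = 0.0811 and 0.097), and the second also without the 3 arrays named above. With only the small PDF and ELAV arrays fitted, the first was lost as well, and with only the large and small PDF arrays fitted, so was the second.

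The comparison of per01 with wild-type large PDF neurons sets males without a working period gene against males and females that have it, so a difference can come with genotype or with sex. On the deposited scale 10 of 17 genes were called, all lower in per01, against 32% of all probe sets called, 31% lower and 0.926% higher. The 15 genes detected on all arrays had negative differences throughout, with a median of -0.63. The median over the 17 genes tested was -0.77 and that over all probe sets tested was -0.69. After all arrays were given a common distribution, 0 of 17 genes were called (4 at an unadjusted p below 0.05, lowest adjusted p = 0.107), and 11 of the 15 were lower with a median of -0.24, beside 0.01 over all probe sets. After the arrays were centred on their medians, 0 were called (1 at an unadjusted p below 0.05, lowest adjusted p = 0.206), 7 were lower and 8 higher, and the median was 0.01, beside -0.05 over all probe sets.

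Median centring shifts all genes of this comparison by the same amount, so it keeps their deposited order by construction. Among the 15 genes detected on all arrays, Vha100-1 had the most negative value as deposited and with a common distribution. It stood at -1.20 ± 0.26 as deposited (adjusted p = 0.00262), -0.69 with a common distribution and -0.56 after centring. Its per01 values were 9.85, 8.79, 9.95 and 9.02, all below the lowest wild-type large PDF array at 9.99. The subunit C gene Vha44 gave 8.61, 8.57, 9.19 and 8.76 against 9.51 to 10.56, again with no overlap, and a difference of -1.07 ± 0.25 (adjusted p = 0.00391) that was -0.51 and -0.42 on the other scales. Neither difference was called on those scales. Both gaps between the groups were read on the deposited scale. There the per01 array medians were 2.57 to 2.60, against 3.16 to 3.44 on the wild-type large PDF arrays. Overlap on the other scales, and the share of all probe sets without overlap, were not computed. VhaM9.7-b stood at -0.21 ± 0.26 (adjusted p = 0.555), Vha16-1 at -0.16 ± 0.22 (adjusted p = 0.599) and Vha55 at -0.03 ± 0.37 (adjusted p = 0.958) as deposited, and these 3 were positive on both other scales.

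**Figure D4:**
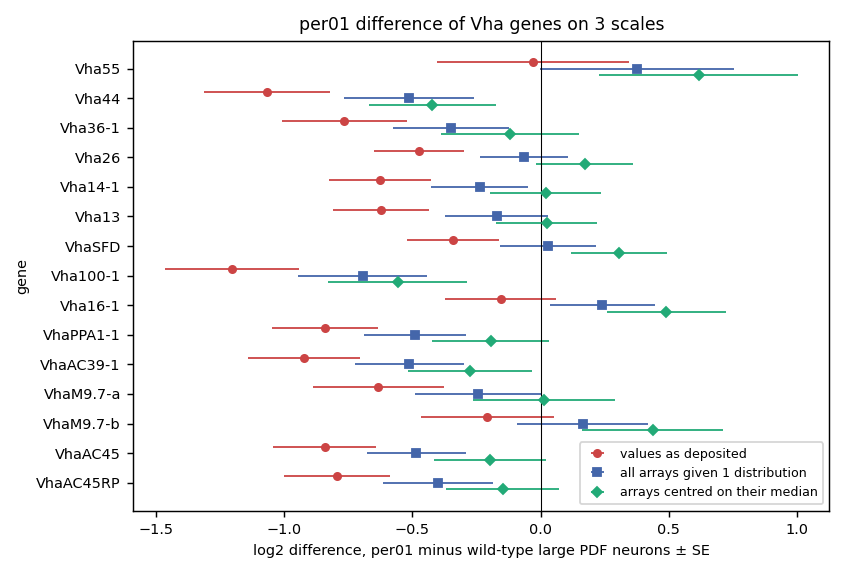
Difference between per01 and wild-type large PDF neurons (horizontal axis, log2, mean of ZT0 and ZT12) with its standard error for the 15 Vha genes detected on all arrays, on the deposited scale (red circles), after all arrays were given a common distribution (blue squares) and after median centring (green diamonds). All 15 red circles are below 0, whereas 11 blue squares and 7 green diamonds are.

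The other per01 calls on the deposited scale were VhaAC39-1 at -0.92, VhaAC45 and VhaPPA1-1 at -0.84, VhaAC45RP at -0.79, Vha36-1 at -0.77, Vha14-1 at -0.63, Vha13 at -0.62 and Vha26 at -0.47, with adjusted p from 0.0047 to 0.0491. After centring Vha13 stood at 0.0235, Vha14-1 at 0.0195 and Vha26 at 0.17, so that the direction of these 3 turned. Leaving out per01 ZT12 replicate 2 brought the 10 calls to 6.

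Time of day left the 17 genes without a call on their representative probe sets. From ZT0 to ZT12, 0 of 17 genes were called in large PDF neurons (background 2.19% called, 0 at an unadjusted p below 0.05), small PDF neurons (3.39%, 1 at an unadjusted p below 0.05), ELAV neurons (0.024%, 0) and per01 large PDF neurons (0.012%, 0). The limma F test over ZT0, ZT6, ZT12 and ZT18 in large PDF neurons called 0 (2.02%, 0 at an unadjusted p below 0.05), with adjusted p from 0.429 to 0.898. Tests of whether the time difference itself differed called 0 for small against large PDF neurons (0.697%, 1), 0 for large PDF against ELAV neurons (0.0962%, 0) and 0 for per01 against wild type (0.144%, 0). At these background rates fewer than 1 of 17 genes would be called in any of these comparisons.

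VhaAC45 in small PDF neurons came nearest to a call. Its values were 12.79 and 12.43 at ZT0 and 13.76 and 13.72 at ZT12, without overlap between 2 and 2 arrays. The difference of 1.14 ± 0.31 had an adjusted p of 0.0533, and it passed the threshold under 5 of the alternative settings and without large ZT12 replicate 2. In large PDF neurons the same gene differed by -0.06 ± 0.25 between these times (adjusted p = 0.932). The test of the difference between the 2 kinds gave 1.20 ± 0.40 (adjusted p = 0.227).

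The 2 probe sets of Vha16-1 disagreed over time. On the representative one, the large PDF arrays gave 13.48, 14.02 and 13.97 at ZT0 and 13.89, 13.61 and 13.82 at ZT12, a difference of -0.05 (adjusted p = 0.95). On the second probe set, the values were 12.33, 12.16 and 11.93 at ZT0, 11.98 and 12.39 at ZT6, 14.63, 13.79 and 14.22 at ZT12, and 11.83 and 13.26 at ZT18. All 3 ZT12 arrays lay above every other large PDF array. That probe set was higher at ZT12 by 2.08 ± 0.48 (4.21-fold, adjusted p = 0.0295), and the F test over the 4 times gave an adjusted p of 0.0634. In small PDF neurons it gave 10.78 and 12.52 at ZT0 and 11.10 and 10.68 at ZT12, and in per01 neurons 12.33 and 12.39 at ZT0 and 12.04 and 12.03 at ZT12. The time difference in large PDF neurons was not shown to differ from that of the other kinds. Small minus large gave -2.83 ± 0.77 (adjusted p = 0.0996), and per01 minus wild-type large -2.40 ± 0.77 (adjusted p = 0.401). In the other direction, large minus ELAV gave 1.66 ± 0.68 (adjusted p = 0.383).

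**Figure D5:**
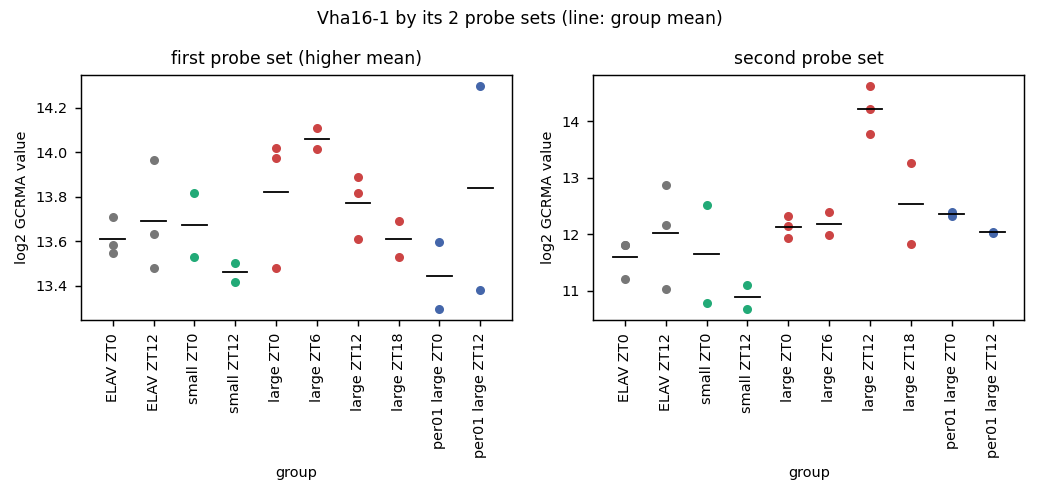
Deposited log2 GCRMA value (vertical axis, not starting at 0 and scaled for each panel) of Vha16-1 on its first (left) and second (right) probe set on every array by group, with a line at each group mean. On the second probe set the 3 large ZT12 arrays lie at 13.79 to 14.63, above all others, and on the first they lie among the rest.

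The second probe set was also called between cell kinds, with large PDF neurons 1.36 ± 0.34 above ELAV neurons (adjusted p = 0.00695) and small PDF neurons at -1.90 ± 0.38 against large ones (adjusted p = 0.00214). Its name ends in s_at, which Affymetrix gives to probe sets that match more than 1 transcript, as do those of 6 other probe sets in the family. Which transcripts these probes match was not analysed here, so the values are given for the probe set and not for the gene. The same limit holds for those 6, the representative probe sets of Vha100-1, Vha100-2, Vha26, Vha44, Vha55 and VhaAC45, although their values are given under the gene names.

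The paralogues detected on some arrays varied widely between replicates. Vha100-2, a second subunit a gene, reached 5 on 3 of 6 ELAV, 3 of 10 large PDF and 0 of 4 small PDF and per01 arrays each. It was highest on ELAV ZT12 replicate 3 at 8.87, followed by large ZT0 replicate 2 at 6.49 and ELAV ZT0 replicate 3 at 5.86. Its values stayed between 3.04 and 3.59 on the 4 small PDF arrays and between 2.62 and 2.74 on the per01 arrays. No comparison called it, with -1.96 ± 0.76 for small PDF against ELAV neurons (adjusted p = 0.0637). Of 6 haemocyte markers, 4 were at 5 or more on ELAV ZT12 replicate 3, with Ppn at 8.09, and 5 on large ZT0 replicate 2, with Ppn at 10.30 and Col4a1 at 10.37. The summed log2 level of the 6 markers was 35.0 and 49.9 on these arrays. ELAV ZT0 replicate 3 and ELAV ZT12 replicate 2, with Vha100-2 at 5.86 and 5.42, had 1 marker at 5 or more, which was Pxn, and Pxn reached 5 on every array. Large ZT12 replicate 2 also had 4 of the markers at 5 or more, with Vha100-2 at 4.00. Over all arrays the summed level of the 6 markers ranged from 25.2 to 35.0 in ELAV, from 28.9 to 49.9 in large PDF, from 23.4 to 28.5 in small PDF and from 23.2 to 23.6 in per01 neurons. NimC1 was under 5 on every array, and Hml was at 5 or more on large ZT0 replicate 2 alone. Their part in the Vha100-2 values was not tested.

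VhaM9.7-c, another subunit e gene, reached 6.68 on small ZT12 replicate 2 and 2.44 on its partner, 6.02 on ELAV ZT12 replicate 3, and 5.92 on large ZT12 replicate 2. It was not called in any comparison, and its replicates differed by more than 3 log2 units within 3 groups.

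Genes that work with the pump were read from 5 lists: assembly and regulation (3 of 5 genes tested), lysosomal and endosomal channels, exchangers and membrane proteins (11 of 13), lysosomal hydrolases and cofactors (11 of 16), vesicular transporters driven by the proton gradient (4 of 5) and docking of the growth kinase TORC1 at the lysosome (11 of 16). In large PDF against ELAV neurons 0 assembly genes, 4 membrane genes (3 higher), 3 hydrolase genes (all higher), 3 vesicular transporter genes (all lower) and 0 TORC1 genes were called. In small against large PDF neurons the counts were 1 (lower), 3 (1 higher), 4 (1 higher), 3 (2 higher) and 3 (all lower). In small PDF against ELAV neurons they were 1 (lower), 4 (1 higher), 3 (2 higher), 3 (all lower) and 2 (1 higher). The background percentages are those given above for each comparison.

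The assembly factor gene Rbcn-3B, whose protein regulates the assembly of the pump, was lower in small PDF neurons by -1.25 ± 0.34 against ELAV neurons (adjusted p = 0.0104) and by -1.30 ± 0.34 against large ones (adjusted p = 0.0135). Among the membrane genes, the sodium-proton exchanger gene Nhe1 was 0.90 ± 0.18 higher in large PDF than in ELAV neurons, and small PDF neurons stood at -1.76 ± 0.20 against large ones (adjusted p = 1.32e-05). The lysosomal transporter gene spin was 2.59 ± 0.41 higher in small PDF than in ELAV neurons. Cln3, orthologue of a human gene of lysosomal storage disease, was under 5 on all PDF arrays and at 6.51 to 10.69 on the ELAV arrays.

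The sterol carrier gene Npc2a was 2.25 ± 0.26 higher in large PDF than in ELAV neurons (adjusted p = 4.82e-06), and small PDF neurons stood at -1.86 ± 0.29 against large ones. Ppt1, which encodes an enzyme that removes palmitate from proteins, was under 5 on all small PDF arrays and at -2.52 ± 0.56 against large PDF neurons (adjusted p = 0.00429). Of the genes that spend the gradient on vesicle filling, Vmat was at 14.58 to 14.83 on the ELAV arrays and under 5 on all large PDF arrays, and VAChT was also under 5 on all large PDF arrays. VGAT stood at -2.50 ± 0.35 in large PDF against ELAV neurons, and the mushroom body transporter gene prt at -1.84 ± 0.48 in small against large PDF neurons. The Ragulator genes Lamtor1 and Lamtor3 stood at -1.28 ± 0.36 and -1.21 ± 0.35 in small against large PDF neurons (adjusted p = 0.019 and 0.0249), with RagC-D at -0.80 ± 0.26 (adjusted p = 0.0425). Other called genes of these comparisons, named after their values were seen, were Nhe3, Lerp, CtsB, CtsF, CtsL1 and mio.

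In per01 against wild-type large PDF neurons 13 of the 40 tested genes of the 5 lists were called on the deposited scale, all lower, beside 31% lower and 0.926% higher over all probe sets. With a common distribution 6 of the 40 were called (5 lower) and after median centring 2 (1 lower). The gene called higher was Lerp, at 0.77 (adjusted p = 0.0293) with a common distribution and 1.03 (adjusted p = 0.00377) after centring. As deposited Lerp stood at 0.38 (adjusted p = 0.146). The hydrolase list genes Sap-r and Gal were called lower as deposited and with a common distribution, but not after centring (adjusted p = 0.114 and 0.0563). RagC-D, a GTPase gene of TORC1 docking, was called lower on all 3 scales, at -2.21 ± 0.26 as deposited, -1.50 with a common distribution and -1.56 after centring (adjusted p = 1.76e-05, 0.00149 and 0.00141). Rbcn-3B (-1.72 ± 0.34 as deposited) and ATP6AP2 (-1.30 ± 0.25), whose protein binds the pump in many species, were not called after centring (adjusted p = 0.0563 and 0.136), and Wdr24 (-1.89 ± 0.45) on neither of the other scales. Over time, the TLDc domain gene mtd was lower at ZT12 than at ZT0 in large PDF neurons (-2.45 ± 0.55, adjusted p = 0.0239). In small PDF neurons Nhe2 was lower at ZT12 (-3.48 ± 0.72, adjusted p = 0.00966) and Vmat higher (5.88 ± 0.62, adjusted p = 2.43e-05), with Vmat at 2.43 and 2.55 at ZT0 and at 9.698 and 7.05 at ZT12. For Vmat the difference from large PDF neurons was itself called (5.86 ± 0.81, adjusted p = 0.00146). Vmat is also 1 of the 6 markers of other neurons by transmitter, of which 1 to 2 were at 5 or more on the small PDF arrays, 0 to 1 on the large PDF arrays and 4 to 5 on the ELAV arrays. Their summed log2 level ranged from 22.3 to 29.2 in small PDF, from 16.96 to 26.37 in large PDF and from 52.0 to 61.6 in ELAV neurons, with VGlut and ple under 5 on all small PDF arrays. The part of other neurons in the Vmat values was not tested. No other time contrast called a gene of the lists.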

How the data were processed

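The values deposited by the authors are on a log2 scale and come from GCRMA, run in R 2.6 according to the submitters' processing notes. The arrays are Affymetrix Drosophila 2.0 arrays, and the RNA (0.1 to 0.4 ng) was amplified in 2 rounds, per the labels' protocols. The set of arrays normalized jointly was not given in the sources used. After 183 control probe sets were removed, 18769 remained, of which 13647 had 1 gene symbol, 402 several and 4720 none. Probe sets at log2 5 or more on at least 2 arrays (8318) were fitted with limma 3.58.1 (R 4.3.3), with lmFit and eBayes over all 24 arrays in 10 groups, leaving 14 residual degrees of freedom, and p-values were adjusted over all 8318 within each contrast. Array precision is limited by 2 or 3 arrays per group. In simulated data for large minus ELAV (8318 probe sets), 25% of 100 probe sets changed by 1 log2 unit were recovered. Of 100 changed by 2 units 78% were recovered, and 5 unchanged ones were called. In the data 24.4% of probe sets were called in this comparison, a larger share than was changed in the simulation. The adjusted p depends on that share, so these rates are not the power of the tests above.

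Values per array are given for members called in any contrast and for subunits with several paralogues. Of each companion list, called members are named, at most 4 by size. Members and lists were chosen with earlier results of these data known.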

Additional observations from a re-analysis of the deposited data

How the results depend on the processing

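Array number limits these tests, and 17 genes give counts that move with single calls. In large PDF against ELAV neurons the 3 calls became 1 with arrays centred on their median, 1 with only the groups of the contrast fitted, 1 without the 3 arrays picked for markers of other cells and 5 with a variance trend and robust moderation. The 4 calls in small PDF against ELAV neurons became 7 without a filter, 8 with values under 5 raised to 5 and 9 with the variance trend. Those in small against large PDF neurons fell from 8 to 3 with only these groups fitted and to 5 without the 3 arrays. The 10 calls in per01 became 0 after median centring and 0 after quantile normalization. From ZT0 to ZT12, large PDF neurons gained 1 call when the probe set with the largest spread was taken, where Vha16-1 turned from -0.05 to 2.08. Small PDF neurons gained 1 call (VhaAC45) without a filter, with a filter at 7, with values raised to 5, after quantile normalization and with the variance trend. The variance trend also gave 1 call for the time difference between small and large PDF neurons. After centring, Vha13 (0.0235), Vha14-1 (0.0195) and Vha26 (0.17) turned positive in per01. Leaving out 1 array at a time gave 1 to 3 calls in large against ELAV, 3 to 5 in small against ELAV, 4 to 8 in small against large, 6 to 11 in per01, 0 to 1 from ZT0 to ZT12 in small PDF neurons and 0 to 0 in each other contrast. Same-numbered arrays at ZT0 and ZT12 correlated in their deviations from the group means at -0.10 to 0.14. In groups of 2 arrays the 2 deviations mirror each other, so both numbers give the same correlation. These values cannot decide whether the numbers mark a shared batch. With the replicate block the calls were 2, 4, 8 and 9 in large against ELAV, small against ELAV, small against large and per01, and 0 in the time contrasts. The causes of these changes were not tested.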

Other observations

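Among members that did not pass the filter, 2 reached 5 on a single array each. Vha36-2, a subunit D paralogue, was at 5.80 on small ZT0 replicate 1, and Vha68-3, a subunit A gene, was at 5.38 on large ZT6 replicate 2. On all other arrays both were under 5.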
